A study of Mus musculus with 6 samples.

Results

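The genes described here are 10 receptor genes of the Fc receptor and paired receptor families in mouse neutrophils, compared between mice given chronic unpredictable mild stress (CUMS) and Control mice. They were taken from the count files by gene symbol, keeping the row of highest total where a symbol occurs more than once. All 10 symbols were found, each on 1 row, among 47561 rows, and all 10 passed the filter on low counts that left 15778 genes for testing. Of these receptors, 6 are counted as activating (Fcgr1, Fcgr3, Fcgr4, Fcer1g, Trem1 and Trem3) and 4 as inhibitory (Fcgr2b, Pirb, Cd300a and Sirpa).

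RNA was sequenced from neutrophils of the bone marrow of male wild-type mice, sorted by flow cytometry. In the CUMS group, 3 libraries came from mice exposed in sequence to changing environmental stressors for 4 weeks. In the Control group, 3 libraries came from mice not given that protocol. The labels name neither strain nor age, and the sources used here do not say which markers were sorted on or how many animals stand behind a library.

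Neutrophils carry receptors that start and receptors that stop the same responses. Activating Fc receptors bind the constant part of antibodies and signal through an immunoreceptor tyrosine-based activation motif (ITAM), which most of them borrow from an adaptor chain, and the kinase Syk docks on that motif once it is phosphorylated. Inhibitory receptors carry a related motif in their own tail, the immunoreceptor tyrosine-based inhibition motif (ITIM), which recruits phosphatases such as the products of Ptpn6 and Inpp5d. The balance of both kinds sets the threshold for phagocytosis, degranulation and the oxidative burst.

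The tyrosine motifs that separate the inhibitory from the activating receptors are shown because the comparison of both kinds rests on them. They were read from the coding sequence of 1 principal transcript per gene (GENCODE M21, build GRCm38), behind the last hydrophobic stretch of the translated protein, and the capitals mark the tyrosine codons. The ITIM was searched as isoleucine, leucine, valine or serine, any residue, tyrosine, any 2 residues, then isoleucine, leucine or valine.
Fcgr2b ITIM, chr1:170961071-170961088, minus strand: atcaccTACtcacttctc
Pirb first ITIM, chr7:3713862-3714103 across an intron, minus strand: agcctaTATgcttcagtg
Pirb second ITIM, chr7:3712786-3712803, minus strand: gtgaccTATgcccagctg
Pirb last ITIM, chr7:3712696-3712713, minus strand: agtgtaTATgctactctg
Cd300a first ITIM, chr11:114899846-114899863, plus strand: gtggaaTATagcacattg
Cd300a second ITIM, chr11:114901147-114901164, plus strand: cttcacTATtcatccgtg
Sirpa first ITIM, chr2:129629954-129629971, plus strand: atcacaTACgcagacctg
Sirpa second ITIM, chr2:129630077-129630094, plus strand: ctcaccTATgctgacctg
Sirpa last ITIM, chr2:129630149-129630166, plus strand: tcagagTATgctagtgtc
Fcer1g ITAM, chr1:171229889-171230072 across an intron, minus strand: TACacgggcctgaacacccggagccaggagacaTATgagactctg

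All 4 inhibitory receptors held at least 1 ITIM in this search, and none of the 6 activating receptors did. The ITAM was found in Fcer1g, which supplies it to the Fc gamma receptors, and in none of the other 9. The pattern of the ITIM is short, and the same search found it in 27.7% of the 9261 coding genes with a hydrophobic stretch, against 1.18% for the ITAM. Trem1 and Trem3 ended 4 and 14 residues behind that stretch, and Fcgr3 and Fcgr4 ended 26 and 24 residues behind it. A pattern match describes the letters only.

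Levels were compared between genes in CPM, counts relative to the library's summed counts after TMM scaling, divided by the exon length of each gene in kilobases. In both groups Fcer1g stood first, at 393 ± 36.3 CPM per kb in CUMS libraries and 424 ± 23.6 CPM per kb in Control libraries (SD, n = 3 each, as for all group means). Fcgr3 was next with 355 ± 25.7 CPM per kb in CUMS libraries and 349 ± 15.0 CPM per kb in Control libraries. Trem3 and Pirb lay close together. Trem3 had 304 ± 19.9 CPM per kb in CUMS libraries and 329 ± 16.0 CPM per kb in Control libraries, and Pirb had 309 ± 7.31 CPM per kb in CUMS libraries and 315 ± 9.56 CPM per kb in Control libraries. Their order was therefore exchanged between the groups, and their libraries overlapped in each. Sirpa followed with 206 ± 2.35 CPM per kb in CUMS libraries and 193 ± 2.21 CPM per kb in Control libraries. Trem1 had 165 ± 5.50 CPM per kb in CUMS libraries and 156 ± 1.18 CPM per kb in Control libraries. Both were well above Fcgr4, which had 92.3 ± 7.46 CPM per kb in CUMS libraries and 82.9 ± 4.41 CPM per kb in Control libraries. The inhibitory receptor Cd300a was lower, at 46.9 ± 0.685 CPM per kb in CUMS libraries and 43.7 ± 0.621 CPM per kb in Control libraries. Fcgr2b came below it, at 10.6 ± 0.270 CPM per kb in CUMS libraries and 11.8 ± 0.533 CPM per kb in Control libraries. Fcgr1 was last, at 0.0725 ± 0.0329 CPM per kb in CUMS libraries and 0.132 ± 0.0278 CPM per kb in Control libraries.

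Neighbours in this order were separated in every library from Sirpa downwards. Higher up, Fcer1g and Fcgr3 overlapped in CUMS libraries but not in Control libraries, and Fcgr3 and Trem3 overlapped in Control libraries but not in CUMS libraries. Activating and inhibitory receptors were interspersed along the order, with activating ones at both ends. Dividing by the longest coding transcript instead of all exons gave the same order in each group.

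**Figure D1:**
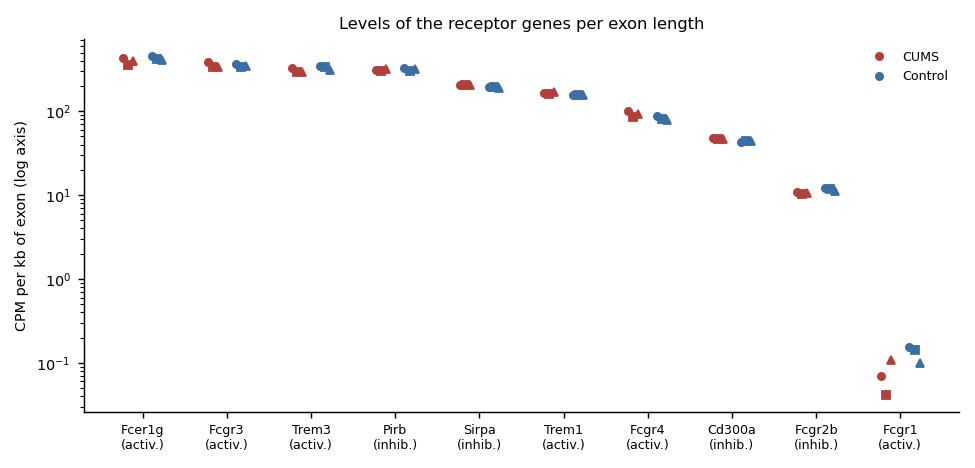
Level of each receptor gene in CPM per kb of exon on a log axis, with 3 CUMS libraries (red) left of 3 Control libraries (blue) for each gene, and genes ordered by their mean in Control libraries. Most receptors lie between 10 and 500 CPM per kb, and Fcgr1 lies far below them in both groups.

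The neutrophil label was checked against marker genes. All 14 neutrophil markers were tested, led by S100a9, and they summed to 115482 to 142293 CPM in CUMS libraries and 134662 to 146553 CPM in Control libraries. Libraries summed to 85799370 to 109757558 estimated counts in the CUMS group and 78845457 to 103483602 in the Control group, with about 4 estimated counts to a read pair. In these bulk samples, fewer cells of a type and less RNA per cell cannot be told apart.

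None of the 10 receptors passed the test between CUMS and Control, where 4.5% of all genes tested did (2.36% higher and 2.14% lower in CUMS). The test was edgeR's quasi-likelihood test with Benjamini-Hochberg adjustment over all 15778 genes at a threshold of 0.05, and the receptors' adjusted p-values ran from 0.176 to 0.878. Before adjustment, 5 of 10 receptors had p below 0.05, against 16.9% of all genes. In 4 of 10 the libraries of the groups did not overlap in CPM, against 22.9% of all genes. These were Trem1, Cd300a and Sirpa, higher in all CUMS libraries (11.5% of all genes), and Fcgr2b, lower in all CUMS libraries (11.5% of all genes). The shares over all genes include genes of few counts. No such share is given for genes as abundant as the receptors other than Fcgr1. For 9 of 10 receptors the 95% interval of the fold lay within 1.25-fold either way, and the exception was Fcgr1.

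**Figure D2:**
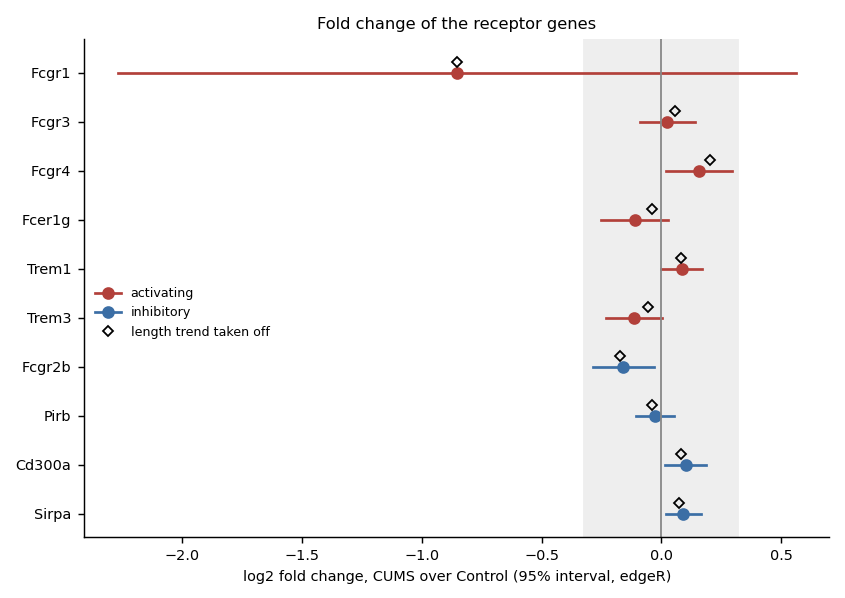
Log2 fold change of each receptor gene, CUMS over Control, with its 95% interval from edgeR (activating in red, inhibitory in blue), and an open diamond for the value with the length trend taken off. The grey band spans 1.25-fold either way and holds every interval except that of Fcgr1.

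Among the activating Fc receptors, Fcgr3, the low-affinity receptor for immune complexes of IgG, differed least. Fcgr3 (chr1:171051174-171064935, minus strand) had 626, 553 and 555 CPM in CUMS libraries and 596, 550 and 558 CPM in Control libraries. The first library of each group was highest, and the groups overlapped. The fold was 1.02 (95% interval 0.939 to 1.10, adjusted p = 0.878), and its sign depended on the first CUMS library, since the log2 fold change of 0.03 was -0.04 without it.

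Fcgr4, the mouse receptor for IgG2a and IgG2b that is the counterpart of human FCGR3A, lay between its relatives on chromosome 1 (chr1:171018920-171029761, plus strand). Fcgr4 had 125, 106 and 117 CPM in CUMS libraries and 110, 102 and 99.5 CPM in Control libraries. Of the 3 CUMS libraries, 2 were above all Control libraries, and the second CUMS library lay below the highest Control library. Its log2 fold change of 0.16 ± 0.06 (SE) was the largest among the activating receptors in the direction of CUMS, a fold of 1.11 (95% interval 1.01 to 1.23, edgeR unadjusted p = 0.031, adjusted p = 0.231). Without the first CUMS library the log2 fold change was 0.10.

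Fcer1g encodes the gamma chain that carries the ITAM shown above and that Fcgr1, Fcgr3 and Fcgr4 need for signalling (chr1:171229572-171234365, minus strand). Fcer1g had 319, 265 and 298 CPM in CUMS libraries and 337, 311 and 304 CPM in Control libraries. The first CUMS library lay within the Control range and the other 2 below it, and the fold was 0.926 (95% interval 0.840 to 1.02, edgeR adjusted p = 0.428). Its log2 fold change of -0.11 was -0.17 without the first CUMS library, -0.04 without the second CUMS library and -0.06 without the first Control library.

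Fcgr1, the high-affinity IgG receptor that is scarce on resting neutrophils, was barely detected (chr3:96282909-96293969, minus strand). Fcgr1 had 15, 12 and 30 estimated counts in CUMS libraries and 31, 38 and 22 in Control libraries, which is 3 to 7.5 read pairs in CUMS libraries and 5.5 to 9.5 in Control libraries. The groups overlapped, since the third CUMS library exceeded the third Control library. The fold of 0.553 had a 95% interval of 0.208 to 1.47 (edgeR adjusted p = 0.582), so neither a fall nor a rise of this gene was detectable at this depth.

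Trem1 and Trem3 are activating receptors of the immunoglobulin family that amplify inflammatory responses through the adaptor encoded by Tyrobp. They are neighbours on chromosome 17, 852 bases apart, both on the plus strand (Trem1 at chr17:48232768-48246924, Trem3 at chr17:48247777-48258841). Trem1 had 494, 478 and 511 CPM in CUMS libraries and 462, 469 and 467 CPM in Control libraries, so that every CUMS library was higher. Its fold was 1.06 (95% interval 1.00 to 1.12, edgeR unadjusted p = 0.049, adjusted p = 0.293). Trem3 had 325, 290 and 291 CPM in CUMS libraries and 340, 332 and 310 CPM in Control libraries. The first CUMS library lay within the Control range and the other 2 below it, at a fold of 0.923 (95% interval 0.851 to 1.00, edgeR adjusted p = 0.302).

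The ratio of Trem1 to Trem3 was 1.52, 1.64 and 1.76 in CUMS libraries and 1.36, 1.42 and 1.51 in Control libraries. It was higher in every CUMS library, by 15.0% between the group means, with the highest Control library close under the lowest CUMS library. Tyrobp, named for its role after its values were seen, had 939 ± 90.1 CPM in CUMS libraries and 946 ± 81.3 CPM in Control libraries (log2 fold change -0.01, edgeR adjusted p = 0.965).

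**Figure D3:**
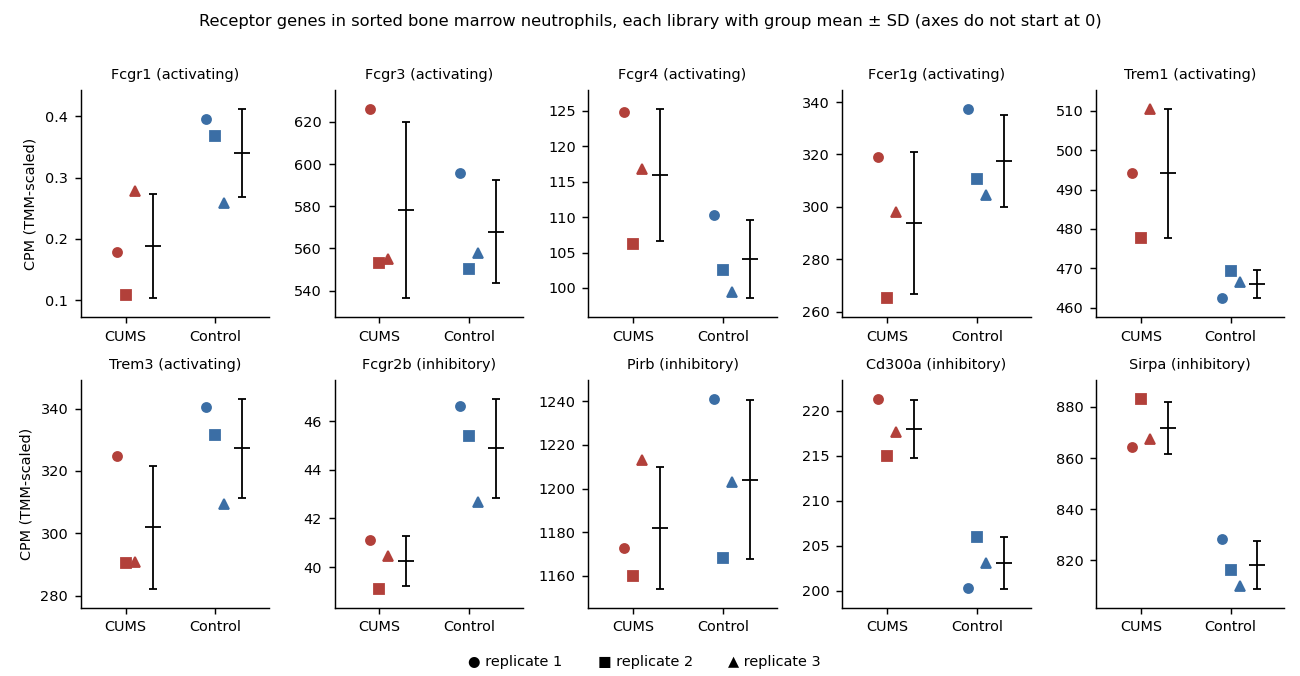
Scaled CPM of each receptor gene in the 3 CUMS libraries (red) and 3 Control libraries (blue), with the group mean ± SD beside the points and axes that do not start at 0. Trem1, Cd300a and Sirpa are higher and Fcgr2b is lower in every CUMS library, and the groups overlap in the other 6 genes.

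Among the inhibitory receptors, Fcgr2b was lower in every CUMS library without passing the test. Fcgr2b is the only inhibitory receptor for IgG and the direct counterpart of Fcgr3 and Fcgr4 (chr1:170958617-170976547, minus strand). Fcgr2b had 41.1, 39.1 and 40.5 CPM in CUMS libraries and 46.6, 45.4 and 42.7 CPM in Control libraries, without overlap. The fold was 0.896 (95% interval 0.820 to 0.980, edgeR unadjusted p = 0.020, adjusted p = 0.181). By an exact permutation test of this 1 gene the two-sided p was 0.1, the smallest that 3 against 3 libraries allow, as also for Trem1, Cd300a and Sirpa. B cells carry Fcgr2b too, and all 11 B cell markers had higher values in CUMS libraries, where they summed to 207 to 216 CPM, against 168 to 173 CPM in Control libraries. Only Ighm among them passed the test, and the part of these cells in the Fcgr2b value was not tested.

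Sirpa binds CD47 on other cells and restrains their phagocytosis (chr2:129592835-129632228, plus strand). Sirpa had 865, 883 and 868 CPM in CUMS libraries and 828, 816 and 810 CPM in Control libraries. Every CUMS library was higher, and the spread within each group was among the smallest of the receptors. The fold was 1.07 (95% interval 1.01 to 1.12, edgeR adjusted p = 0.176). DESeq2 called Sirpa at an adjusted p of 0.036 and called none of the other 8 receptors it gave an adjusted p (Fcgr1 had none), against 9.81% of the genes it tested, and limma voom with sample quality weights called Sirpa alone of the 10 at an adjusted p of 0.045, against 6.29% of all genes. Leaving out 1 library at a time, edgeR called Sirpa in no case.

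Cd300a is a receptor for phosphatidylserine and phosphatidylethanolamine on dying cells (chr11:114890041-114904654, plus strand). Cd300a had 221, 215 and 218 CPM in CUMS libraries and 200.3, 206 and 203 CPM in Control libraries. Every CUMS library was higher, at a fold of 1.07 (95% interval 1.01 to 1.14, edgeR unadjusted p = 0.023, adjusted p = 0.194). DESeq2 gave an adjusted p of 0.070.

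Pirb, a receptor for MHC class I molecules, is the partner of the activating Pira genes (chr7:3711409-3720391, minus strand). Pirb had 1173, 1160 and 1213 CPM in CUMS libraries and 1241, 1168 and 1203 CPM in Control libraries, overlapping, with a fold of 0.982 (95% interval 0.928 to 1.04, edgeR adjusted p = 0.800). Its counts are uncertain in their assignment, because 16.9% of the 150-base windows of its transcript occur unchanged in transcripts of 7 other genes, Pira2 among them. With that limit, the ratio of Pirb to the sum of Pira1 and Pira2 was 2.46, 2.40 and 2.43 in CUMS libraries and 2.76, 2.50 and 2.60 in Control libraries, and was lower in every CUMS library. Pirb and Pira2 each overlapped between the groups. Pira1 was higher in every CUMS library, at 222 ± 3.19 CPM against 199.7 ± 6.19 CPM in Control libraries. Its log2 fold change was 0.15 (edgeR adjusted p = 0.060, DESeq2 adjusted p = 0.0029).

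No 150-base window of the other 9 receptors occurs in another gene's transcript. Shorter windows of 50 bases were shared more often, at 12.8% for Fcgr3, 11.4% for Fcgr2b, 3.31% for Cd300a and 37.3% for Pirb. The closest pair is Fcgr2b and Fcgr3, whose coding sequences are 83.9% identical over 784 aligned bases. Their longest identical run is shown because no base within it tells the 2 genes apart.
Fcgr2b and Fcgr3 shared coding run, chr1:170966674-170968081 in Fcgr2b and chr1:171054167-171057792 in Fcgr3, both across an intron and on the minus strand: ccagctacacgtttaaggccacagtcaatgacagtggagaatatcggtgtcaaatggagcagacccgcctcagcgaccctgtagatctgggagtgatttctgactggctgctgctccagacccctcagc
This run has 129 bases, shorter than a read of 150 bp. The other pairs compared, among them Fcgr3 with Fcgr4 and Trem1 with Trem3, were 59 to 63.5% identical with no identical run over 14 bases. Fcgr2b also overlaps an antisense gene in the annotation, and the sources used here do not say whether the libraries kept strand.

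The activating receptors as a class did not separate from the inhibitory ones. The mean log2 CPM of the 6 activating receptors minus that of the 4 inhibitory receptors was -1.69, -1.91 and -1.67 in CUMS libraries and -1.56, -1.61 and -1.69 in Control libraries, and the groups overlapped. The difference of the group means was -0.14, against SDs of 0.14 in CUMS and 0.07 in Control libraries. It rested on Fcgr1 with its few reads, since without that gene it was 0.0039, a calculation added after the values were seen. The median log2 fold change was -0.04 over the 6 activating and 0.03 over the 4 inhibitory receptors. It was -0.01 over all genes tested and 0.01 over genes above 20 CPM. Summed CPM of the activating receptors was 1784 ± 99.2 in CUMS libraries and 1783 ± 56.7 in Control libraries, and that of the inhibitory receptors was 2312 ± 23.5 in CUMS libraries and 2270 ± 41.6 in Control libraries.

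Within the IgG receptors the ratio of activating to inhibitory transcripts was higher in CUMS libraries. Per kb of exon, the sum of Fcgr1, Fcgr3 and Fcgr4 over Fcgr2b was 44.8, 41.3 and 40.9 in CUMS libraries and 37.1, 35.2 and 37.7 in Control libraries. Every CUMS library was above every Control library, and the group mean was 15.5% higher (42.3 ± 2.18 in CUMS and 36.6 ± 1.27 in Control libraries). The ratio to Fcgr2b was higher for both main components, but Fcgr3 itself hardly differed, at a fold of 1.02 with overlapping groups. The fold of Fcgr2b was 0.896. Fcgr3 over Fcgr2b in CPM was 15.2, 14.1 and 13.7 in CUMS libraries and 12.8, 12.1 and 13.1 in Control libraries. Fcgr4 over Fcgr2b was 3.03, 2.71 and 2.89 in CUMS libraries and 2.36, 2.26 and 2.33 in Control libraries, 24.2% higher between the means. The ratios share the denominator Fcgr2b, which rested on 3463 to 4374 estimated counts in CUMS libraries and 3621 to 4691 in Control libraries. No test is given for these ratios, since the receptors were chosen with results of these data known.

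Other ratios of interacting products are given as values. The ratios reuse some of the same genes, and how often ratios of other gene pairs do not overlap was not computed. Fcgr3 over its signalling chain Fcer1g averaged 1.97 ± 0.112 in CUMS libraries and 1.79 ± 0.0370 in Control libraries, without overlap. Fcgr4 over Fcgr3 was 0.199, 0.192 and 0.210 in CUMS libraries and 0.185, 0.186 and 0.178 in Control libraries, again without overlap. Sirpa over its ligand Cd47 averaged 4.68 ± 0.250 in CUMS libraries and 4.04 ± 0.0507 in Control libraries, with all CUMS libraries higher. Cd300a over the activating Cd300ld was 0.545, 0.623 and 0.591 in CUMS libraries and 0.544, 0.561 and 0.540 in Control libraries, and these overlapped.

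**Figure D4:**
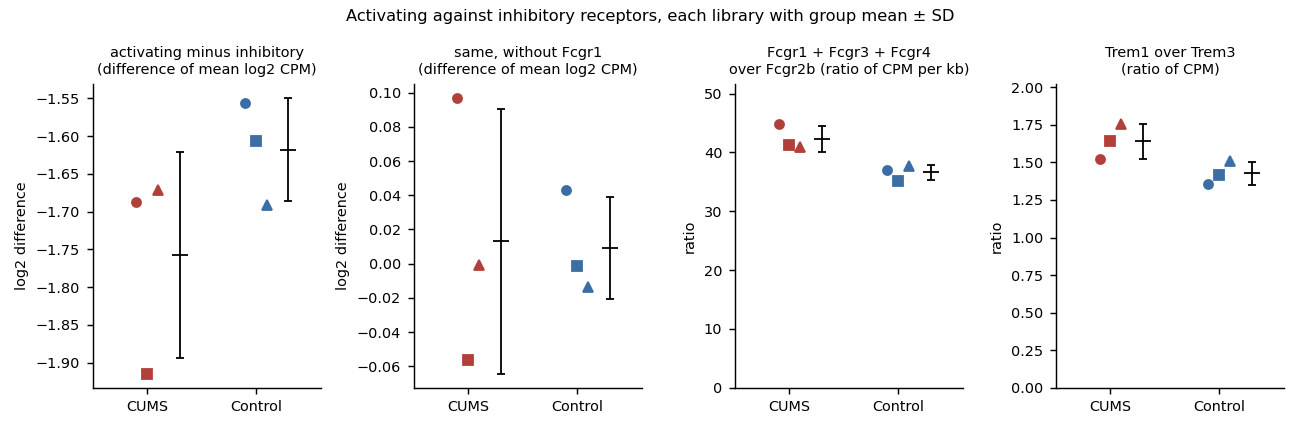
Activating against inhibitory receptors in each library, CUMS (red) left of Control (blue), with group mean ± SD: differences of mean log2 CPM with and without Fcgr1, the IgG receptor ratio per kb of exon, and Trem1 over Trem3 in CPM. The class differences overlap between the groups, whereas both ratios are higher in every CUMS library.

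Exon length moved with the differences. Among genes over 20 CPM, the median log2 fold change was -0.06 for 129 genes of up to 1000 bases, -0.04 for 612 genes of up to 2000 bases, 0.0024 for 1771 genes of up to 4000 bases and 0.04 for 2297 longer genes. The short Fcer1g and Trem3, at 748 and 994 bases, were on the lower side and the long Sirpa and Cd300a, at 4241 and 4645 bases, on the higher side, each as the trend runs. Trem1, at 2996 bases, also had its sign. Fcgr3 and Fcgr4, at 1629 and 1256 bases, and Fcgr2b and Pirb, at 3810 and 3824 bases, went against it. With the trend of each library taken off, a calculation added after the values were seen, Fcgr4 was called at a log2 fold change of 0.20 (edgeR adjusted p = 0.017), as the only receptor of the 10, against 5.93% of all genes. The values of Fcer1g and Trem3 then shrank to -0.04 and -0.06 on the log2 scale, Fcgr2b stood at -0.17 and Sirpa at 0.07. Trem1 stood at 0.08 and Fcgr3 at 0.06. The IgG receptor ratio was then 19.2% higher in CUMS libraries. Trem1 over Trem3 and Fcgr3 over Fcer1g, each a longer over a shorter gene, are given above only without this correction.

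In CUMS libraries the shorter receptors also varied more, leaving aside Fcgr1 with its few reads. The coefficient of variation of Fcer1g, Trem3, Fcgr3 and Fcgr4 ran from 6.54% to 9.24% in CUMS libraries and from 4.29% to 5.55% in Control libraries. That of Sirpa, Cd300a, Pirb, Fcgr2b and Trem1, all longer, ran from 1.15% to 3.33% in CUMS libraries and from 0.758% to 4.52% in Control libraries. The ranges overlapped in Control libraries, where Fcgr2b varied more than Fcgr3. Over all genes above 20 CPM in the 4 length classes given above, from short to long, the median was 10.6%, 5.63%, 4.12% and 3.79% in CUMS libraries. In Control libraries it was 6.52%, 4.86%, 3.68% and 4.41%, so the longest class there varied more than the class before it.

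Within 100000 bases of the receptor genes, 44 other genes were tested and 1 of them was called (2.27%, against 4.5% of all genes), B430306N03Rik beside Trem1 and Trem3 (log2 fold change 0.18, edgeR adjusted p = 0.012), named after its value was seen. The chromosome 1 interval, with 19 tested genes that include Fcgr2b, Fcgr4, Fcgr3 and Fcer1g, held no called gene. Counts this small do not stand apart from the share over all genes.

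In the lists of signalling partners, related receptors and ligands, 3 of 75 tested genes passed the test (4%, near the 4.5% of all genes), 1 higher and 2 lower in CUMS. Of 20 genes of ITAM adaptors and activating signalling, 1 rose, none fell and 19 did not pass (median log2 fold change 0.02). The gene that rose, Cbl, works against activation, so the count is not a rise of an activating gene. Cblb, of the same family, was counted in the inhibitory list below and did not pass. Cbl, a ubiquitin ligase that takes activated receptors and kinases down, had 888, 942 and 970 CPM in CUMS libraries and 742, 827 and 832 CPM in Control libraries. It rose by a log2 fold change of 0.22 ± 0.05 (SE, edgeR adjusted p = 0.029), with no overlap. The call was lost without low-count filtering and without any 1 of 5 libraries, all except the first CUMS library, at adjusted p-values up to 0.153. Syk, the most abundant gene of that list, had 1061, 1120 and 1098 CPM in CUMS libraries and 1002, 1044 and 1041 CPM in Control libraries, without overlap, and did not pass (log2 fold change 0.09, edgeR adjusted p = 0.249).

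Of 13 genes of ITIM phosphatases and inhibitory signalling none was called, with a median of 0.03. Ptprc, a phosphatase that sets Src kinase activity and the most abundant of them, averaged 2389 ± 31.6 CPM in CUMS libraries and 2407 ± 97.6 CPM in Control libraries. Ptpn6, named for its role after its values were seen, averaged 651 ± 12.0 CPM in CUMS libraries and 660 ± 9.68 CPM in Control libraries. DESeq2 called 2 of these 13 genes, against 9.81% of all genes it tested, and 2 had an unadjusted edgeR p below 0.05, against 16.9% of all genes.

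Of 12 other paired receptors tested that were listed as inhibitory, 1 fell, and its role in these cells was not tested. Cd244a, a receptor of the SLAM family that binds CD48, had 19.3, 20.4 and 19.8 CPM in CUMS libraries and 25.8, 27.8 and 26.9 CPM in Control libraries. All CUMS libraries were lower, at a log2 fold change of -0.44 ± 0.07 (SE, edgeR adjusted p = 0.0042), and the call held under all 14 alternatives tried. Lilrb4a, the most abundant of the list, averaged 1745 ± 64.6 CPM in CUMS libraries and 1840 ± 66.9 CPM in Control libraries (edgeR adjusted p = 0.364).

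None of the 17 other activating paired receptors tested was called by edgeR, where 2 had an unadjusted p below 0.05 and DESeq2 called 1, Pira1. Treml2, the most abundant, averaged 493 ± 10.5 CPM in CUMS libraries and 478 ± 4.81 CPM in Control libraries. None of 8 other Fc receptors was called by edgeR, with 1 below an unadjusted p of 0.05 and 1 called by DESeq2, Ms4a2 in each case. These counts too are to be read against 16.9% of all genes for the unadjusted p and 9.81% for DESeq2. Trim21, the cytosolic antibody receptor, led them at 18.1 ± 1.30 CPM in CUMS libraries and 17.7 ± 1.27 CPM in Control libraries.

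Among 5 tested genes of ligands and of products tied to them, 1 fell. Thbs1, whose product binds CD47, the ligand of Sirpa, had 1732, 1875 and 1831 CPM in CUMS libraries and 2162, 2294 and 2188 CPM in Control libraries. Every CUMS library was lower, and Thbs1 fell by a log2 fold change of -0.29 ± 0.04 (SE, edgeR adjusted p = 0.0018), a call that held under all 14 alternatives. Cd47 itself had 196, 181 and 182 CPM in CUMS libraries and 205, 199.7 and 203 CPM in Control libraries, lower in every CUMS library, without passing the test (log2 fold change -0.12, edgeR adjusted p = 0.179).

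**Figure D5:**
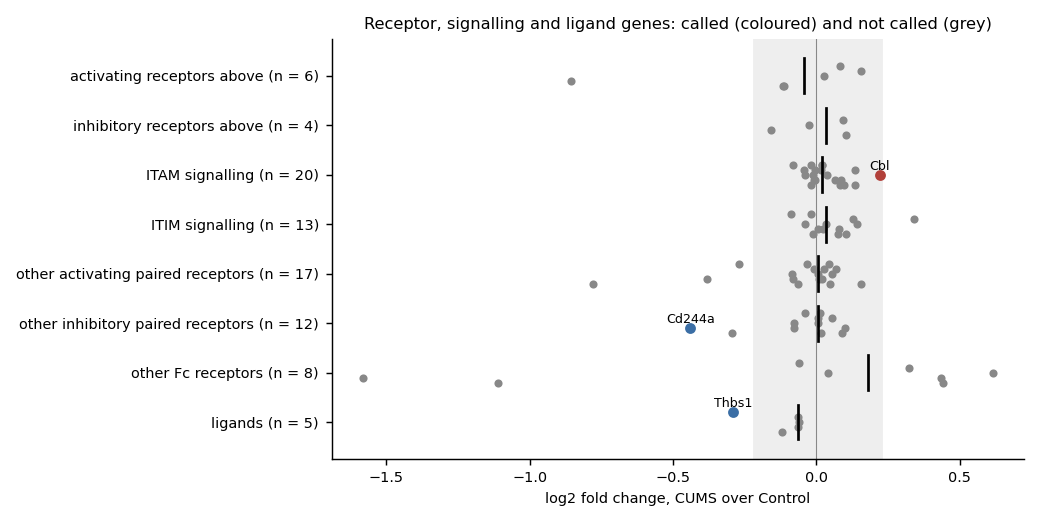
Log2 fold change, CUMS over Control, of the receptor genes and of the lists around them, with called genes coloured and named, a black bar at each list's median, and a grey band from the 5th to the 95th percentile of all genes over 20 CPM. Cbl is higher and Cd244a and Thbs1 are lower in CUMS, and the medians of the activating and inhibitory receptors lie at -0.04 and 0.03.

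Several markers of other cells and of neutrophil stage moved with the groups, and their part in the receptor values was not tested. Monocyte and macrophage markers, whose cells carry most of these receptors, summed to 691 to 779 CPM in CUMS libraries and 726 to 768 CPM in Control libraries. Most of that sum was Ly6c2, at 484 ± 44.5 CPM in CUMS libraries and 530 ± 24.3 CPM in Control libraries, which did not pass the test. Of these markers, 9 of 14 were higher in mean, of which Csf1r and F13a1 passed the test. Csf1r averaged 201 ± 1.40 CPM in CUMS libraries and 176 ± 5.72 CPM in Control libraries, without overlap. Eosinophil markers summed to 51.6 to 60.3 CPM in CUMS libraries and 44.9 to 51.9 CPM in Control libraries, with all 9 higher, of which Epx and Prg2 passed the test. Basophil and mast cell markers summed to 852 to 879 CPM in CUMS libraries and 1083 to 1097 CPM in Control libraries, nearly all of it Hdc, which fell. Of these 8 markers, 1 was higher in mean in CUMS libraries, and Hdc alone passed the test. Ms4a2 averaged 0.439 CPM in CUMS libraries and 1.32 CPM in Control libraries (edgeR adjusted p = 0.068, DESeq2 adjusted p = 0.018). Gata2 averaged 0.604 CPM in CUMS libraries and 1.74 CPM in Control libraries (edgeR adjusted p = 0.053, DESeq2 adjusted p = 0.0084). Both were lower in every CUMS library. Fcer1a averaged 0.0733 CPM in CUMS libraries and 0.163 CPM in Control libraries. Erythroid markers summed to 2537 to 3023 CPM in CUMS libraries and 1316 to 1888 CPM in Control libraries, with all 13 higher, of which 8 passed the test. Plasma cell markers summed to 6.98 to 7.67 CPM in CUMS libraries and 5.02 to 5.94 CPM in Control libraries, with Tnfrsf17 at 0 in all libraries. T and NK cell markers, of which 6 of 9 had too few counts to test, summed to 3.90 to 5.58 CPM in CUMS libraries and 3.80 to 5.66 CPM in Control libraries. Of 14 neutrophil markers, 4 were higher in mean in CUMS libraries. Mmp9 rose and Camp and Ltf fell, and the other 11 did not pass the test.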

How the data were processed

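RNA-seq of sorted neutrophils was available as estimated counts per gene, deposited by the authors as 1 file per library. Build mm10, featureCounts 1.6.4, HISAT2 2.1, DESeq2 2.11.40.6, cutadapt 1.16.5 and bcl2fastq 2.19 appear in the submitters' processing notes, without roles. The deposited numbers are whole, but 4, 8 and 12 are 1.89, 1.66 and 1.41 times as frequent as the values beside them. A read pair was therefore taken to be worth about 4 estimated counts. Precision is therefore lower than the numbers look, and 1588 rows carry assembled identifiers without a gene name.

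Genes were filtered by edgeR's filterByExpr and tested by the quasi-likelihood method (edgeR 4.0.16, R 4.3.3) with group as the only term, on the numbers as deposited. DESeq2 1.42.0, limma 3.58.1 voom, other scalings, no filter, a replicate term, the numbers divided by 4 and each library left out were alternatives. The fit was tested on simulated data. CPM were scaled by TMM, and log2 CPM used a prior count of 2. Lengths, positions and coding sequences came from GENCODE M21 on GRCm38, which is the build mm10. The length trend was a smooth of log2 CPM against log2 exon length in each library.

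The receptors and lists were chosen with earlier results of these data known. Named genes are the 10 receptors, each called gene of a list and its most abundant gene. Tyrobp, Ptpn6, Cblb, Cd47, Pira1, Pira2, Cd300ld, B430306N03Rik and the marker genes were named after their values were seen. Of the list genes, Pira6, Pira7, Pira11, Pira12, Pira13 and Lilrb4b had no matching row, and 6 had too few counts. The labels do not say whether libraries came from separate animals, so p-values measure only the spread between these samples, which may be technical.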

Additional observations from a re-analysis of the deposited data

How the results depend on the processing

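Over 14 alternatives, 134 of the 138 values of single receptors kept their direction and stayed on the same side of the threshold. Fcgr3 alone changed direction, at a log2 fold change of -0.035 without CUMS replicate 1, and its values ran up to 0.063 (without Control replicate 1). The count of receptors called was 0 except for 1 under DESeq2 and 1 under limma voom (Sirpa in each) and 1 with the length trend taken off (Fcgr4). Over all genes, 710 calls among 15778 genes tested became 462 among 23638 without a filter and 1150 among 11719 under DESeq2. With 1 library left out the calls ran from 305 to 697, with 350 without CUMS replicate 2, 305 without CUMS replicate 3, and 462, 341 and 348 without Control replicates 1, 2 and 3, where fewer samples entered the fit. Those fits tested 16106 to 16619 genes. The list genes, 3 called of 75, became 9 of 71 under DESeq2, where 9.81% of all genes were called. Under limma voom 6 of 75 were called, against 6.29% of all genes. With numbers divided by 4 the count was 7 of 73, against 895 of all 12857 genes. With the length trend taken off it was 6 of 75, against 5.93% of all genes. With 1 library left out it ran from 2 to 5 of 75, with 5 without CUMS replicate 1. The cause of these shifts was not tested. The difference of activating and inhibitory means, -0.14, was 0.0039 without Fcgr1 and ran from -0.18 to -0.06 with 1 library left out, with -0.06 without CUMS replicate 2. The IgG receptor ratio stayed 12.1% to 17.5% higher in CUMS in those runs.

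Over all 15778 genes, same-numbered libraries of the groups did not deviate together (r = 0.0081, 0.0035 and -0.026). Differently numbered libraries gave r from -0.029 to 0.027. With 3 libraries a group, these values cannot exclude a pairing that affects some genes only. Of the receptors, 6 were highest in CUMS replicate 1 and 8 in Control replicate 1, against 35.0% and 36.3% of all genes. A replicate block gave 931 calls over all 15778 genes, against 710 without it. It gave 6 calls among the 75 list genes and 0 among the receptors. Whether the numbers mark a shared batch was not tested.

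With 3 libraries a group, no exact test of a single gene can go below 0.1. The depth limits Fcgr1, at 3 to 9.5 read pairs a library.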
